A study of Marchantia polymorpha with 6 samples.

Results

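MpCYP829F2 (Mp7g08070), MpCYP829-like42 (Mp8g12170) and MpCYP829F1 (Mp3g14900) are 3 cytochrome P450 genes of the liverwort Marchantia polymorpha, out of 46 CYP829 genes and 19472 gene IDs counted. They were chosen by their own read counts in these 6 libraries, which were far lower in thalli grown with arsenite than in control thalli, so their values are given as a description and carry no test. All 3 passed the low-count filter, which 13544 genes passed in all. Poly(A) RNA was sequenced from thalli, the flat plant body, of the male accession Cam1, with 3 libraries from plants on Gamborg B5 medium at reduced strength with 2.5 µM sodium arsenite and 3 from plants on that medium without arsenite. All plants grew at 21 °C. The duration of exposure and the age of the plants are not given in the labels, nor is it stated whether replicates were separate cultures, so the spread between libraries may be technical in part. Whole thalli were used. In such bulk RNA, fewer cells of a type and less transcript per cell cannot be told apart.

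Cytochrome P450s are haem-containing oxygenases, mostly anchored in the membrane of the endoplasmic reticulum, that insert an oxygen atom into small molecules. In plants they act in the synthesis of hormones, sterols, cutin monomers, terpenoids and phenolic compounds, and most draw their electrons from NADPH through a shared cytochrome P450 reductase. Family numbers such as CYP829 group P450s by sequence similarity, and a letter after the number marks a subfamily, so MpCYP829F1 and MpCYP829F2 belong to subfamily F. MpCYP829-like42 carries the family number without a subfamily. No substrate is stated here for any CYP829 enzyme.

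MpCYP829F2 was counted with 21, 16 and 17 reads in arsenite replicates 1, 2 and 3, against 1921, 507 and 423 reads in control replicates 1, 2 and 3. Scaled to reads per 1000000 reads of tested genes (CPM, with TMM factors), this gave 0.670, 0.542 and 0.653 CPM with arsenite and 39.4, 19.4 and 13.3 CPM in controls. The arsenite libraries lay close together, and control replicate 1 stood well above the other two controls. Even the lowest control library was 19.8 times the highest arsenite library. The log2 fold change of arsenite over control (log2FC) was -5.27 ± 0.48 (SE; 95% interval -6.39 to -4.14). Without control replicate 1, the high control library, it was -4.69.

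MpCYP829-like42 was counted with 12, 24 and 12 reads in arsenite replicates 1, 2 and 3, against 697, 222 and 586 reads in controls. Its levels were 0.383, 0.812 and 0.461 CPM with arsenite and 14.3, 8.48 and 18.4 CPM in controls. Arsenite replicate 2 was the highest of its group, control replicate 2 was the lowest of its own, and the groups stayed apart by a factor of 10.4. A count of 12 reads has an exact Poisson 95% interval from 6.20 to 21.0 reads, which covers counting error only, so the differences among the arsenite libraries lie near what counting alone allows. Its log2FC was -4.63 ± 0.42 (SE; 95% interval -5.61 to -3.64).

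MpCYP829F1 kept the most transcript of the 3 relative to its own control level. It was counted with 57, 74 and 79 reads in arsenite replicates 1, 2 and 3, against 1031, 311 and 755 reads in controls. Its levels were 1.82, 2.50 and 3.04 CPM with arsenite and 21.1, 11.9 and 23.7 CPM in controls. The lowest control library was 3.92 times the highest arsenite library. Its log2FC was -2.95 ± 0.32 (SE; 95% interval -3.71 to -2.19). MpCYP829-like42 and MpCYP829F2 had lower log2FC values, and the difference between the genes was not tested.

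**Figure D1:**
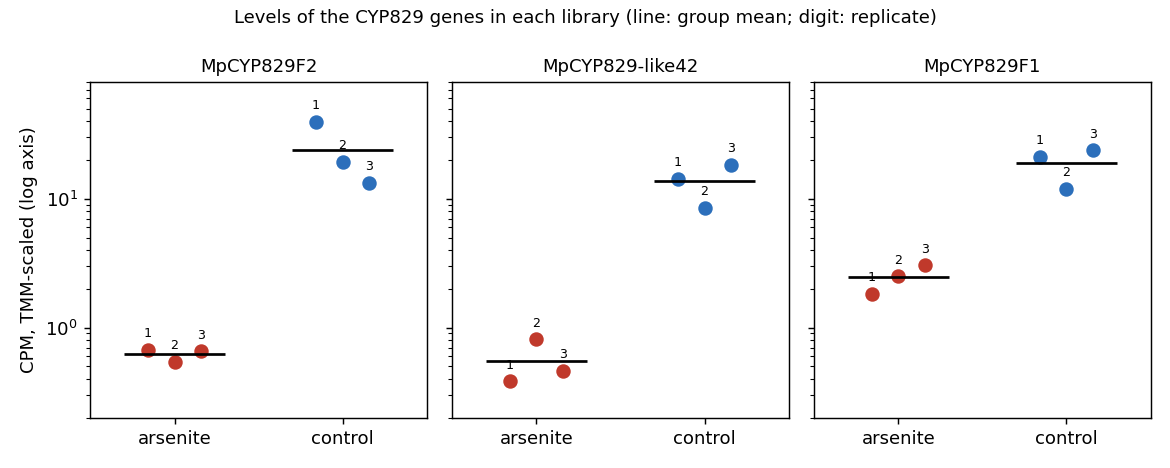
CPM of the 3 genes in each library on a log axis, with arsenite libraries at the left and control libraries at the right of each panel. Points are libraries, digits are replicate numbers and lines are group means. The groups are apart in every panel, by a factor of 19.8 for MpCYP829F2, 10.4 for MpCYP829-like42 and 3.92 for MpCYP829F1.

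Among the 13544 tested genes, the fold changes of MpCYP829F2, MpCYP829-like42 and MpCYP829F1 ranked 13, 14 and 48 from the lowest. With edgeR's quasi-likelihood test at an adjusted p of 0.05, 290 genes (2.14%) were called lower and 276 (2.04%) higher. The groups were apart with arsenite lower for 1956 genes (14.4%) and with arsenite higher for 1866 (13.8%). All 3 genes belonged to both sets of lower genes, which follows from how they were picked. MpCYP829F1 left the called set when arsenite replicate 2 was left out, at a log2FC of -2.97. Arsenite replicate 3 stood apart from the other arsenite libraries on the second principal component of the 500 most variable genes, and without it the log2FC values were -5.29, -4.52 and -3.12 and 6 of the other CYP829 genes were called lower, against 8 with it. All 3 left the called set when both libraries numbered 2 were removed, a setting under which edgeR called 0 genes of any kind, although 1765 had an unadjusted p under 0.05.

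The controls differed more among themselves than is usual for genes of their level. The SD of log2 CPM over the 3 control libraries was 0.79 for MpCYP829F2, 0.57 for MpCYP829-like42 and 0.53 for MpCYP829F1. Genes with a control mean within a factor of 2 had median SDs of 0.15, 0.17 and 0.16, and 98.7%, 93.9% and 94.9% of them varied less than the gene in question. With arsenite the SD of MpCYP829F2 was 0.15, below the median of 0.45 for genes of its level there, and those of MpCYP829-like42 (0.51) and MpCYP829F1 (0.36) lay near their medians of 0.46 and 0.36. MpCYP829-like42 and MpCYP829F1 ordered the controls alike, with replicate 3 highest and replicate 2 lowest. MpCYP829F2 did not follow that order, being highest in control replicate 1 and lowest in control replicate 3.

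Of the 43 other CYP829 genes, 32 were tested. Among these 8 fell (25%, against 2.14% of all tested genes), 1 rose (3.13%, against 2.04%) and 23 did not pass. Fold changes were negative for 25 and positive for 7, with a median log2FC of -0.72, against -0.004 over all tested genes. The groups were apart with arsenite lower for 15 of the 32, against 14.4% of all tested genes, and with arsenite higher for 1, against 13.8%. Relative to each gene's own control mean, the 32 genes had a median log2 CPM of -0.45, -0.52 and -0.76 in arsenite replicates 1, 2 and 3, while control replicates 1, 2 and 3 had medians of 0.08, -0.04 and 0.01. The number that fell dropped to 5 when arsenite replicate 1 was left out and to 1 when arsenite replicate 2 was, while lower calls over all genes dropped to 1.21% and 0.168%. It dropped to 2, 5 and 2 when control replicates 1, 2 and 3 were left out in turn, with lower calls over all genes at 0.512%, 0.707% and 0.695%. In these 5 runs 11 to 14 of the other CYP829 genes were lower at an unadjusted p under 0.05. With all libraries 13 were, against 1398 of all 13544 tested genes. Counted over all genes in either direction, 2199 to 3256 had such a p in the 5 runs, against 2860 with all libraries.

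Of those 8, 3 had log2FC values within the range of the genes described above, from -5.27 to -2.95. MpCYP829-like29 (Mp4g13700) had 0.160, 0.406 and 0.461 CPM in arsenite replicates 1, 2 and 3, against 8.36, 4.05 and 9.91 CPM in controls, a log2FC of -4.45 ± 0.50 (SE, adjusted p = 0.0102). MpCYP829-like15 (Mp2g19660) had 0.766, 0.237 and 0.423 CPM with arsenite, against 7.26, 10.7 and 7.40 CPM in controls (log2FC -4.13 ± 0.42, adjusted p = 0.00843). The groups were apart for both genes, with MpCYP829-like29 lowest in control replicate 2 and MpCYP829-like15 highest there. The call of MpCYP829-like15 was kept in 14 of 15 alternative settings and that of MpCYP829-like29 in 12. MpCYP829-like35 (Mp6g15540) averaged 0.153 ± 0.0774 CPM with arsenite and 1.89 ± 1.02 CPM in controls (SD, n = 3 each), a log2FC of -3.63 ± 0.65 (adjusted p = 0.0324) whose call was lost in 10 of 15 settings.

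The other 5 fell less. MpCYP829-like16 averaged 8.64 ± 2.63 CPM with arsenite and 33.5 ± 7.17 CPM in controls (SD, n = 3 each), a log2FC of -1.96 (adjusted p = 0.0172). MpCYP829-like12 averaged 34.4 ± 9.80 CPM with arsenite and 111 ± 34.1 CPM in controls, a log2FC of -1.68 (adjusted p = 0.0269). Its controls were highest in replicate 2, at 149 CPM. MpCYP829-like11, MpCYP829-like8 and MpCYP829-like23 had log2FC values of -1.64, -1.42 and -1.22. The calls of these 5 were lost in 5 to 8 of the 15 settings, mostly when a library was left out. MpCYP829-like31 (Mp6g05170) was the family member that rose, to 2.11, 2.30 and 1.65 CPM with arsenite, against 0.717, 0.726 and 0.878 CPM in controls (log2FC 1.38 ± 0.27, adjusted p = 0.0401). That call was lost in 9 of 15 settings, including each of the 6 that left a library out.

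**Figure D2:**
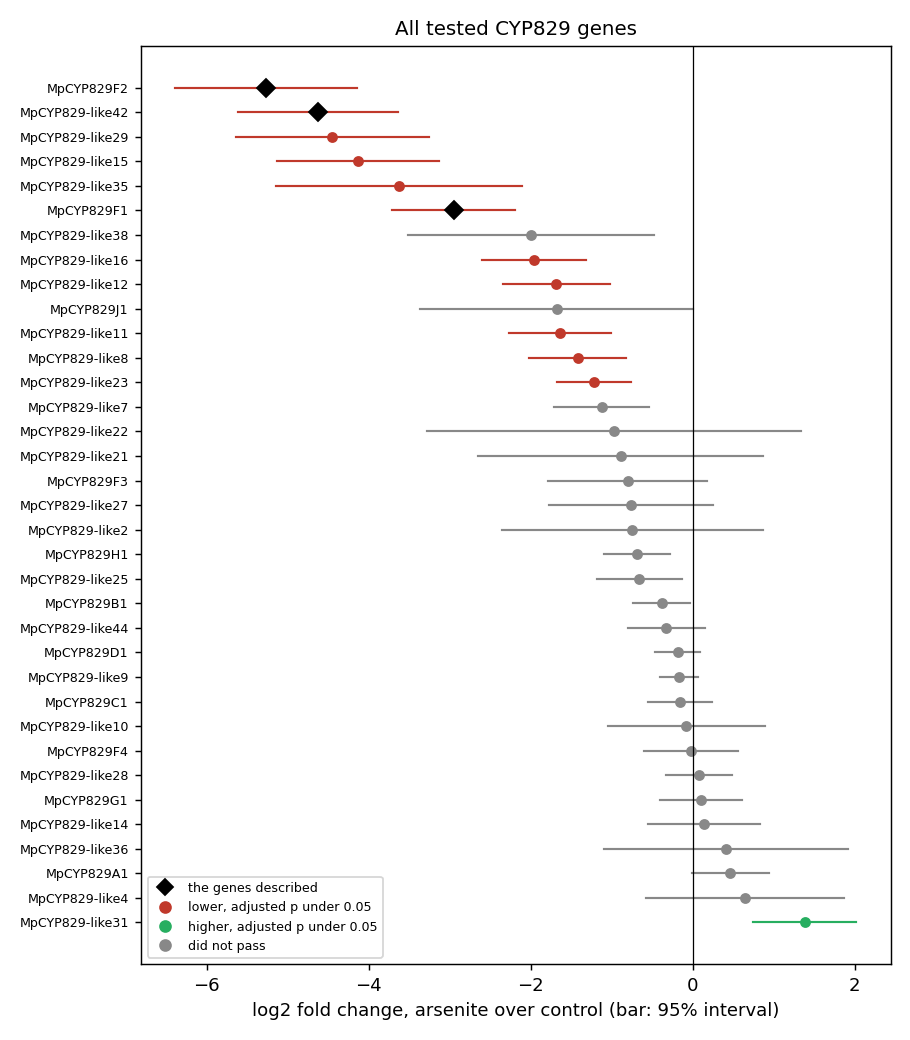
Log2 fold change, arsenite over control, of the 35 tested CYP829 genes in ascending order from the top, with 95% intervals. Diamonds are the 3 genes described, red points are other genes that fell, the green point is the gene that rose and grey points did not pass. MpCYP829-like29, MpCYP829-like15 and MpCYP829-like35 lie between MpCYP829-like42 and MpCYP829F1.

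The other members of subfamily F, which share a letter with MpCYP829F1 and MpCYP829F2, did not pass. MpCYP829F3 (Mp7g08050) had 2.68, 2.00 and 0.961 CPM in arsenite replicates 1, 2 and 3, against 2.69, 4.59 and 2.67 CPM in controls, with overlapping groups and a log2FC of -0.81 (95% interval from -1.79 to 0.18, adjusted p = 0.318). MpCYP829F4 (Mp5g21950) had 96.4, 52.1 and 53.4 CPM with arsenite, against 72.9, 70.9 and 61.0 CPM in controls, also overlapping. Its log2FC was -0.02, with a 95% interval from -0.60 to 0.56. Its difference from MpCYP829F1 and MpCYP829F2, which were picked for their fall, was not tested. Among all 9 tested CYP829 genes with a subfamily letter, the 2 picked ones aside, 0 passed with edgeR or voom. With edgeR calling 2.14% of all tested genes lower, 0 of 9 does not set these genes apart. At an unadjusted p under 0.05, 2 (edgeR), 3 (DESeq2) and 3 (voom) were lower and 0, 1 and 0 higher. Over all 13544 tested genes, edgeR had 1398 lower and 1462 higher at that level. DESeq2 called 1 of the 9 lower, against 4.73% of the genes it tested. That gene, MpCYP829H1, averaged 18.7 ± 2.39 CPM with arsenite and 30.2 ± 5.70 CPM in controls (SD, n = 3 each). All 8 other CYP829 genes that fell, and the 1 that rose, were among the 23 tested genes named CYP829-like, a split noticed after the values were seen and not tested.

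**Figure D3:**
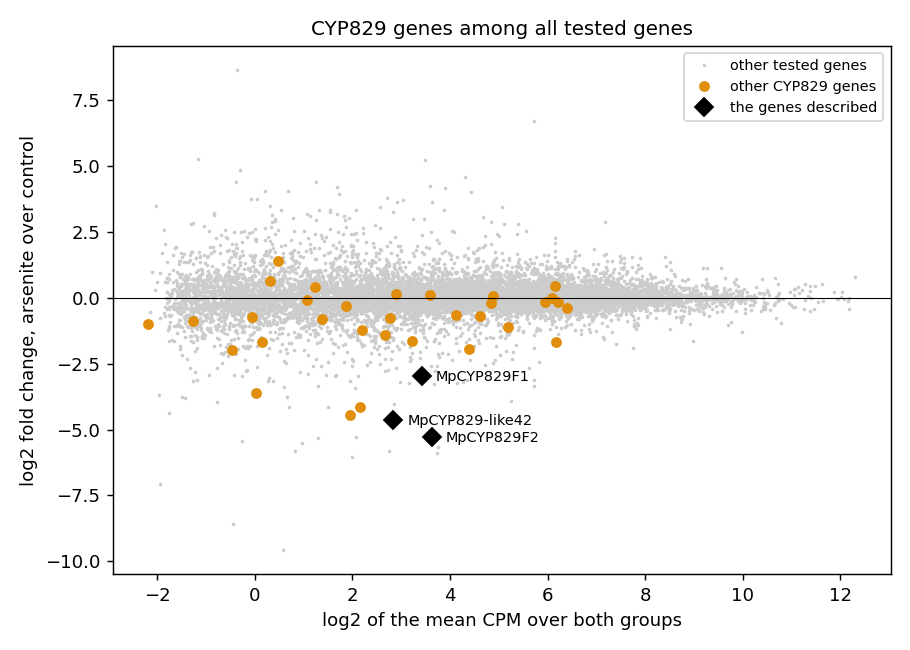
Log2 fold change, arsenite over control, of every tested gene against the log2 of its mean CPM over both groups. Grey points are other tested genes, orange points are the 32 other tested CYP829 genes and black diamonds are MpCYP829F2, MpCYP829-like42 and MpCYP829F1, at -5.27, -4.63 and -2.95. Most orange points lie below 0.

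Because the handling of reads that match several copies is not given, the split of reads between similar CYP829 genes is uncertain. Their sum does not depend on that split, but any such reads left uncounted would be missing from it too. CPM summed over all 35 tested CYP829 genes was 616, 543 and 527 in arsenite replicates 1, 2 and 3, against 822, 838 and 805 in controls. The 3 described genes held 0.466%, 0.710% and 0.787% of that sum with arsenite and 9.10%, 4.74% and 6.88% in controls. Without them the sum was 613, 539 and 523 CPM with arsenite, against 747, 798 and 749 CPM in controls, so the groups were apart for the remaining 32 genes too. The log2 ratio of the means was -0.45, and a two-sided exact permutation test gave p = 0.1, the smallest p that 3 against 3 libraries allow. Net of rises, the mean sum over the 35 genes fell by 259 CPM. The fall of MpCYP829-like12 equalled 29.4% of that net value and the falls of the 3 described genes together 20.4%. Taken singly, MpCYP829-like7 (10.4%), which did not pass, and MpCYP829-like16 (9.58%) fell by more CPM than any described gene. The largest fall among the described genes was that of MpCYP829F2 (9.02%). Positive fold changes were found for 7 of the 35 genes. The largest rise in CPM was that of MpCYP829A1, from a mean of 60.1 CPM in controls to 83.1 CPM with arsenite. It did not pass (edgeR adjusted p = 0.244).

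In the gene table of the MpTak2_v7.1 assembly, MpCYP829F2 lies on chromosome 7 beside MpCYP829-like37 and MpCYP829F3, and MpCYP829-like42 lies on chromosome 8 with MpCYP829-like43 as its second neighbour on the far side of Mp8g12190. MpCYP829F1 lies on chromosome 3 with no CYP829 gene among the 3 genes to each side. The table's spans of the 3 genes overlap 0 other entries. Of 18 neighbours counted in the files, 3 to each side of each gene, 15 were tested with edgeR and voom and 16 with DESeq2. With each tool 0 passed, while edgeR called 2.14% of all tested genes lower and 2.04% higher. At those shares, 0 of 15 does not set the neighbours apart. At an unadjusted p under 0.05, edgeR and voom each had 1 lower and 1 higher, and DESeq2 had 3 lower and 1 higher. Over all 13544 tested genes, edgeR had 1398 lower and 1462 higher at that level. Log2 fold changes of the 15 tested with edgeR ran from -1.08 to 0.32. The neighbours next to MpCYP829-like42 on one side, MpPR6c (-0.98, adjusted p = 0.333) and MpPR6b (-1.08, adjusted p = 0.255), carry symbols of a pathogenesis-related class and had overlapping groups. On the other side of MpCYP829F2, the next counted gene, Mp7g08080, averaged 187 ± 11.7 CPM with arsenite and 156 ± 12.3 CPM in controls (SD, n = 3 each; log2FC 0.26, adjusted p = 0.210).

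**Figure D4:**
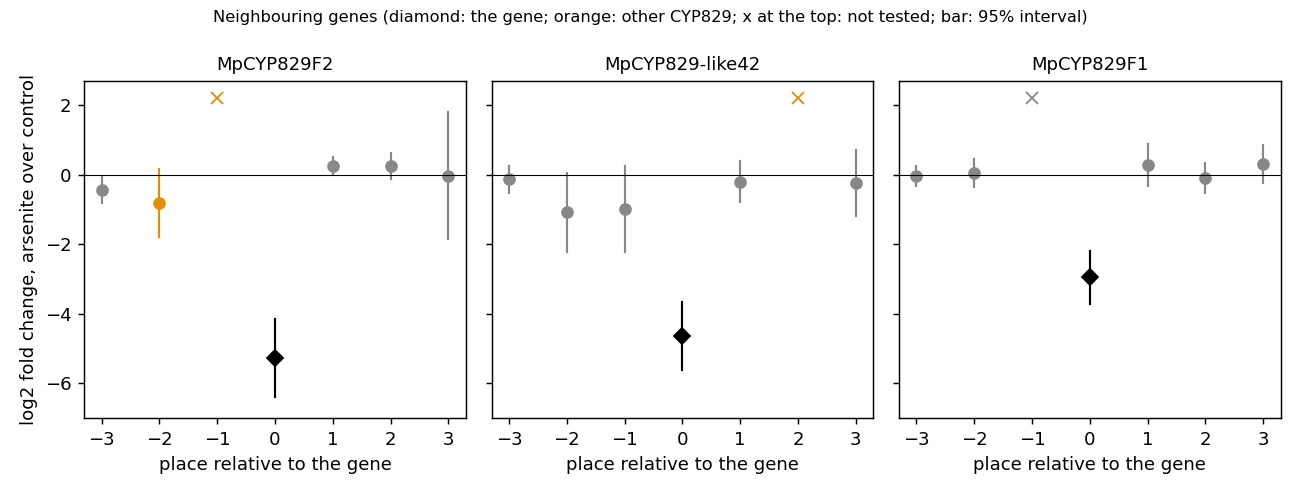
Log2 fold change, arsenite over control, with 95% intervals for the 3 genes (diamonds at place 0) and the genes up to 3 places to each side. Orange marks other CYP829 genes, and a cross at the top marks a gene not tested. The tested neighbours run from -1.08 to 0.32, and the 3 genes stand at -5.27, -4.63 and -2.95. The 3 genes were picked for their fall, so a gap to their neighbours follows in part from that choice.

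Many CYP829 genes lie in runs, here counted where at most 1 other gene stood between them: 8 runs held 22 genes, the longest 5. Of the 16 tested genes in these runs, 7 were called lower, against 2.14% of all tested genes, and 9 did not pass. The 7 include MpCYP829F2 and MpCYP829-like42, which were chosen for being lower. MpCYP829-like31, which rose, lies in no run. In 3 runs a gene that fell stood with one that did not pass. For 1 of these runs the gene that fell was MpCYP829F2, picked for its fall. Another held MpCYP829-like8, with a log2FC of -1.42. Beside it, MpCYP829-like7 did not pass at -1.12 (edgeR adjusted p = 0.056). MpCYP829-like9 and MpCYP829-like10 of that run stood at -0.17 and -0.08. The remaining run held adjacent copies that differed widely. MpCYP829-like15 fell to 0.475 ± 0.268 CPM with arsenite, against 8.45 ± 1.95 CPM in controls, while its neighbour MpCYP829-like14 averaged 7.78 ± 1.32 CPM with arsenite and 7.10 ± 2.45 CPM in controls (SD, n = 3 each; log2FC 0.14, 95% interval from -0.55 to 0.83). In another run both tested members, MpCYP829-like11 and MpCYP829-like12, fell. MpCYP829-like37, between MpCYP829F3 and MpCYP829F2, averaged 0.0582 CPM with arsenite and 0.173 CPM in controls and was too low to be tested.

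P450 genes of other families were counted to set the CYP829 values beside them. Of 66 tested, 3 fell (4.55%, against 2.14% of all tested genes), 1 rose (1.52%, against 2.04%) and 62 did not pass, with a median log2FC of 0.004. The groups were apart with arsenite lower for 16 of the 66, against 14.4% of all tested genes, and with arsenite higher for 5, against 13.8%. At an unadjusted p under 0.05, 20 of the 66 were lower and 5 higher, against 1398 and 1462 of all 13544. MpCYP716-like23 (Mp4g00450), of a family known in other plants for oxidising triterpenes, averaged 4.10 ± 0.384 CPM with arsenite and 16.9 ± 1.31 CPM in controls (SD, n = 3 each; log2FC -2.04, adjusted p = 0.00407). MpCYP821-like and MpCYP822B1 fell by 1.69 and 0.67 on the log2 scale, calls that were lost in 4 and 9 of 15 settings, for MpCYP822B1 in each of the 6 that left a library out. MpCYP716 (Mp1g04680) rose, to 2.32 ± 0.292 CPM with arsenite, against 0.604 ± 0.338 CPM in controls (log2FC 1.97, adjusted p = 0.0476), a call lost in 8 of 15 settings. DESeq2 called 11 lower and 3 higher among all 83 P450 genes outside CYP829, including those that edgeR did not test. Of all genes it tested, DESeq2 called 4.73% lower and 5.48% higher. How many of the 83 it tested was not counted. MpCYP74N2, the P450 outside CYP829 with the highest control CPM, belongs to the allene oxide synthase and hydroperoxide lyase family of oxylipin synthesis and averaged 428 ± 23.5 CPM with arsenite and 595 ± 98.3 CPM in controls (log2FC -0.48, adjusted p = 0.114). MpCPR1, whose symbol is that of a cytochrome P450 reductase, had 17.7, 21.4 and 16.2 CPM in arsenite replicates 1, 2 and 3, against 18.2, 23.4 and 21.3 CPM in controls (log2FC -0.19, 95% interval from -0.56 to 0.18, adjusted p = 0.529).

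Likeness of profile was measured by the root mean square difference, over the 6 libraries, between a gene's log2 CPM relative to its own control mean and the average of the 3 described genes on that scale. The 3 genes themselves lay 0.75 (MpCYP829F2), 0.40 (MpCYP829-like42) and 0.90 (MpCYP829F1) from their average, and the median over 12438 other genes with a mean of at least 1 CPM was 2.93. The 6 nearest genes with a symbol were MpCYP829-like29 (0.37), MpFTPSL3 (0.68), MpCYP829-like15 (0.69), MpCupin54 (0.72), MpMTPSL9 (0.74) and MpCYP829-like35 (0.86). Of the 20 nearest genes, 10 had a symbol and all 20 were called lower, which the measure makes likely since most of it comes from the difference between groups. MpFTPSL3 (Mp6g04400) and MpMTPSL9 (Mp1g25500) carry symbols of terpene synthases, which make the terpenoids of liverworts. MpFTPSL3 had 2.30, 3.99 and 3.88 CPM in arsenite replicates 1, 2 and 3, against 32.7, 22.8 and 39.7 CPM in controls. MpMTPSL9 had 1.79, 3.15 and 2.27 CPM with arsenite, against 22.7, 13.1 and 33.3 CPM in controls. Both shared with MpCYP829-like42, MpCYP829F1, MpCYP829-like29 and MpCYP829-like35 the order of the control libraries, with replicate 3 highest and replicate 2 lowest. The measure uses the control libraries too, so a likeness in their order is in part built in. How many of all genes share that order was not counted. MpCupin54, with 0.128, 0.440 and 0.0768 CPM with arsenite and 4.96, 1.83 and 2.04 CPM in controls, was highest in control replicate 1, as MpCYP829F2 was.

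**Figure D5:**
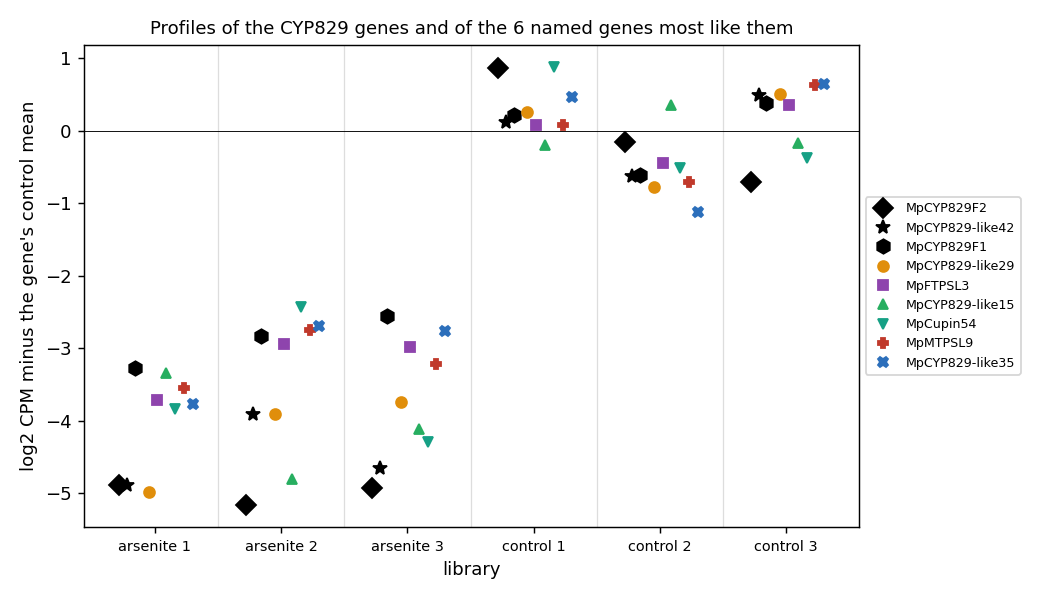
Log2 CPM minus the gene's control mean in each of the 6 libraries for the 3 genes (black) and for the 6 nearest genes with a symbol (coloured); points are spread sideways within a library for legibility. In arsenite libraries the black points run from -5.17 to -2.55 and in control libraries from -0.70 to 0.86.

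Markers of the cell types that a thallus holds were read in the same libraries. Oil body cells are single cells of liverworts that store terpenoids and phenolics. Of 6 oil body cell genes found by symbol, 3 fell, against 2.14% of all tested genes, and 0 rose. All 6 had negative fold changes, as did 6844 of the 13544 tested genes, and their summed level ran from 44.3 to 74.5 CPM with arsenite and from 81.9 to 117 CPM in controls. MpSYP12B, the syntaxin of the oil body membrane, had 1.34, 2.71 and 2.15 CPM in arsenite replicates 1, 2 and 3, against 5.72, 4.85 and 5.87 CPM in controls (log2FC -1.41, adjusted p = 0.0462). MpABCG1 fell (log2FC -1.18, adjusted p = 0.0398), and the transcription factors MpERF13 and MpC1HDZ stood at log2FC values of -1.08 (adjusted p = 0.0805) and -0.56 (adjusted p = 0.253). MpMTPSL3 had 0 reads in each arsenite library, against 19, 21 and 12 reads in controls. No marker of this list was at 0 in the controls, the calls of MpSYP12B, MpABCG1 and MpMTPSL3 were lost in 9, 7 and 9 of 15 settings, and the part of oil body cells in the levels of the 3 P450 genes was not tested.

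Of the other marker lists, MpCSLD1, the 1 rhizoid gene found, rose by 0.62 on the log2 scale (adjusted p = 0.0341, lost in 9 of 15 settings). None of the 4 genes of gemma cups and apical regions passed with any of edgeR, DESeq2 and voom, and with each tool 0 reached an unadjusted p under 0.05. Over all 13544 tested genes, edgeR called 2.14% lower and 2.04% higher, and 2860 had an unadjusted p under 0.05. With only 4 genes, these counts do not show that such regions were unchanged. Their summed level ran from 67.7 to 78.1 CPM with arsenite and from 69.2 to 76.1 CPM in controls. MpDUO1, of the male germ line, averaged 1.32 ± 0.298 CPM with arsenite and 2.44 ± 0.769 CPM in controls (SD, n = 3 each; log2FC -0.90, adjusted p = 0.178), and the sperm protamine gene MpPRM had 1 read in control replicate 1 and 0 elsewhere. MpRBCS, a gene of the photosynthetic enzyme Rubisco, averaged 81.7 ± 19.0 CPM with arsenite and 59.0 ± 16.4 CPM in controls (log2FC 0.47, adjusted p = 0.333).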

How the data were processed

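The authors deposited 1 file of raw counts per library, without normalization, made with htseq-count on Galaxy per the file names. For the aligner, genome build, annotation and strand setting, nothing is stated in the sources used here. The files of both libraries numbered 2 have Windows line ends, unlike the others. Library totals ran from 26579324 to 31573867 reads with arsenite and from 26691102 to 47532310 in controls, and the first principal component separated the groups. Symbols were taken from a gene table of assembly MpTak2_v7.1, matched by locus number (17671 of 18391 tags); families were read from symbols, and MpCYP8290 was not counted in CYP829. No coordinates or sequences are printed, since the files name no build and no sequence of these genes was used here. The relatives by protein identity that the naming rule asked for were therefore not analysed, and members of subfamily F are given instead.

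Counts were tested with edgeR 4.0.16 (R 4.3.3), quasi-likelihood, TMM factors, the default filter and Benjamini-Hochberg adjustment over 13544 genes; standard errors were derived from the F statistic. DESeq2 1.42.0 and voom (limma 3.58.1) were alternatives. Log2 CPM used a prior count of 2. Named were the 3 genes, the CYP829 genes and other P450s that passed, the other P450 with the highest control CPM, neighbours, the 6 genes of most similar profile and markers; other genes were named after their values were seen. Members, lists and rules were chosen with earlier results of these data known. The procedure was tested on simulated counts.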

Additional observations from a re-analysis of the deposited data

How the results depend on the processing

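The 3 genes were picked for their fall, so the sign of their change was all but fixed in advance. The log2 fold changes of MpCYP829F2, MpCYP829-like42 and MpCYP829F1 stayed negative in all 14 alternatives run on them. They ran from -5.56 to -4.69, from -5.02 to -4.36 and from -3.19 to -2.75 when 1 library was left out, and were -5.31, -5.27 and -3.21 without both libraries numbered 2, an alternative chosen after seeing the data in which no gene passed. The counts depended more on the setting. Leaving out 1 library gave 1 to 6 other CYP829 genes lower and 0 higher, 1 to 3 other P450s lower and 0 to 1 higher, and 39 to 461 calls over all genes. At a false discovery rate of 0.01 these were 1, 0, 1, 0 and 57, and without both libraries numbered 2 each was 0. In that last setting 12 other CYP829 genes were lower and 1 higher at an unadjusted p under 0.05, against 1765 genes in all. DESeq2 gave 11 other P450s lower, 3 higher and 1526 calls over all genes, against 10 other CYP829 genes lower and 1 higher. A replicate block gave 6 other CYP829 genes lower and 0 higher, 0 other P450s higher and 364 calls over all genes; deviations of same-numbered libraries correlated at 0.01, -0.11 and 0.19, so the numbers were not taken to pair libraries. Summed CPM of all CYP829 genes kept a log2 ratio between -0.60 and -0.49, and without the 3 genes between -0.51 and -0.40. The cause of these shifts was not tested. With 3 libraries a group and arsenite counts as low as 12 reads, depth limits the fold changes of the lowest genes.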

Other observations

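Of the 46 CYP829 genes, 11 were too low to be tested, and none of these had more than 15 reads in a library. MpCYP829-like24, MpCYP829-like26, MpCYP829-like30 and MpCYP829J2, 4 in all, had 0 reads in every library. MpCYP829-like43, the copy near MpCYP829-like42, averaged 0.0128 CPM with arsenite and 0.106 CPM in controls. MpCYP829J1 averaged 0.517 ± 0.415 CPM with arsenite and 1.68 ± 0.536 CPM in controls (SD, n = 3 each), with arsenite replicate 3 at 0.0384 CPM, and did not pass (log2 fold change -1.68, edgeR adjusted p = 0.239).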
